A study of Mus musculus with 3 samples.

Results

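Sites antisense to exons are places where polyadenylated RNA ended on the strand opposite an exon of another gene. They were read from poly(A) site sequencing (PAS-seq, made with the QuantSeq protocol), in which each read marks the 3′ end of an RNA. The members were the autosomal sites (chromosomes 1 to 19) that carry the region code AE in the deposited site lists, and they numbered 1900 of 171741 autosomal sites and of 178115 listed sites in all. The cells were of the mouse embryonic stem (ES) line F121-9, a hybrid of Cast and 129. They were sequenced as 1 group of 3 libraries (biological replicates 1, 2 and 3), each at passage 14 and from 500 ng of RNA, with no treatment named. The labels do not say that the replicates were grown separately, so p-values rest only on the spread of these libraries, which can be technical. In the tests per gene this spread was drawn largely from all genes together, not from each gene alone. The line is 1 genotype.

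The code is not explained in the deposited files, and the label was checked against the GENCODE M21 annotation. On the opposite strand, 1894 of the 1900 sites (99.7%) lay in an exon, against 197 of 20165 sites coded AI (0.977%), which mostly lay opposite introns. Only 15 AE sites lay in an annotated exon on their own strand. The libraries held 11085428, 14855484 and 14064461 reads in the denominator of the deposited RPM values (reads scaled to the library total). All 10 ES cell markers checked were above 10 RPM (median 491 RPM). Of 12 markers of feeders and early lineages, 1 was (Thy1, at 84.4 RPM) and 1 was at 0 reads (Postn), and their part in the results was not tested.

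A poly(A) site is made when the cleavage machinery binds a hexamer, most often AATAAA and next ATTAAA, a short way upstream of the cut, and poly(A) polymerase adds a tail. RNA on the strand opposite a gene can come from a neighbouring gene whose transcription runs on past its usual end, from a convergent neighbour whose 3′ UTR overlaps, or from a separate antisense RNA, many of which are degraded in the nucleus by the exosome. Antisense reads can also arise without an antisense RNA, since oligo-dT primes on A-rich stretches and reads of near-identical genes can be placed at the wrong copy.

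The sequences of a few sites show what the members have in common and where they differ. The 30 bases that end at the site are given 5′ to 3′ on the strand of the site, from RefSeq's GRCm38.p6 assembly (mm10), with the poly(A) signal hexamer in capitals. The first 2 are the most-read AE site, which lies opposite Acat2 on chr17:12943731-12943760 (+), and a terminal exon site of Tcp1 on chr17:12924529-12924558 (+), shown because they are nearly the same.
Opposite Acat2: gtgtctcacATTAAAgtacagcaagctgtc
Tcp1: gtgtctcacATTAAAgtacagcaagctgac

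The next 3 lie downstream of a gene on their own strand and carry AATAAA. They lie opposite Limd2, downstream of Map3k3, on chr11:106156620-106156649 (+), opposite Stx3, downstream of Mrpl16, on chr19:11776449-11776478 (+), and opposite Cfap43, downstream of Sfr1, on chr19:47737529-47737558 (+).
Opposite Limd2: gcattacttacAATAAAagggatcatttat
Opposite Stx3: atttgttcatttAATAAAcagttgattggt
Opposite Cfap43: ctgttctttAATAAAtacaagcgacacttt

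The last 2 have neither of the 2 main signals. The site opposite Gsdme, downstream of Mpp6, on chr6:50202419-50202448 (+), has the variant AATACA, and the site opposite Zfp131 on chr13:119788834-119788863 (+) has none of the 18 hexamers searched.
Opposite Gsdme: ttttttaagAATACAtttgatgaaaaattc
Opposite Zfp131: taagtactgtggaaaatactactcaccttc

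Sites antisense to exons made up a small part of the poly(A) sites used by these cells, and 1 site held about as many reads as all others together. Their summed level was 1338, 1283 and 1504 RPM in replicates 1, 2 and 3. Other autosomal sites summed to 839954, 840180 and 925684 RPM, so RPM in replicate 3 ran higher at autosomal sites in general. The RPM given below per library are as deposited and are not rescaled for this. The AE level was 0.159%, 0.152% and 0.162% of autosomal RPM (0.158% ± 0.005, SD, n = 3). The site opposite Acat2 took 48.6% ± 2.92 of it (SD, n = 3), and the 20 most-read sites together took 69.9% ± 1.03. Without the site opposite Acat2 the AE share was 0.0813% ± 0.005. Sites antisense to introns held more, at 0.627% ± 0.042 of autosomal RPM, and terminal exon sites held 93.7% ± 0.263.

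Most AE sites had few reads. The median was 2 reads summed over the 3 libraries, against 5 for other autosomal sites, and 795 AE sites (41.8%) had 1 read. A library had reads at 727, 885 and 770 AE sites in replicates 1, 2 and 3. Of the 1900 sites, 131 (6.89%) had reads in all 3 libraries, 220 in 2 libraries and 1549 (81.5%) in 1 library. The share in all 3 was 6.17% for sites antisense to introns and 40.6% for terminal exon sites. It followed the number of reads. Of AE sites with 50 or more reads, 76.1% were seen in every library, against 77.9% for sites antisense to introns and 92.6% for terminal exon sites. This bin has no upper limit, so the reads per site are not matched. At a mean of 30 to 100 reads per library the shares were close, at 96.0%, 96.6% and 95.5%.

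The levels of the well-read AE sites also varied between libraries. Over AE sites with a mean of 30 to 100 reads per library, the median coefficient of variation over libraries was 60.4% (25 sites), against 48.1% for terminal exon sites with the same reads and 56.9% for sites antisense to introns. Where the mean was 100 reads or more, a range with no upper limit, it was 29.4% (15 sites), against 20.4% and 34.1%. These are descriptions, with no test between codes.

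The most-read site lay in the 3′ UTR of Acat2, a cytosolic enzyme that joins acetyl-CoA units on the way to sterols, 870 bases from the annotated end of the gene. Its level was 695, 604 and 702 RPM (667 ± 55.0, SD, n = 3), from 7705, 8967 and 9878 reads. The Acat2 gene itself, on the other strand, stood at 289, 262 and 223 RPM over its own sites in exons and the 1000 bases downstream, so that the antisense site was higher in every library, by 2.40, 2.30 and 3.16 times.

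The reads of this site cannot be assigned with certainty. Its last 30 bases differ from those of the Tcp1 site by A29T (Tcp1's base first, counted from 1 at the 5′ end). The 200 bases downstream were identical, and the edit distance over the 201 bases up to the site was 27. Tcp1, which encodes a subunit of the cytosolic chaperonin TRiC, lies on the same strand, and the 2 sites are 19202 bases apart. The Tcp1 site had 140, 134 and 143 RPM, so the site opposite Acat2 was 4.80 ± 0.255 times higher (SD, n = 3), with little spread over libraries. How reads with several possible places were treated is not given in the sources used here, and which copy the reads came from was not tested.

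The other named sites had means of 57.0 RPM or less. The site opposite Zfp131, a zinc finger gene, lay in its coding sequence and had 38.0, 63.5 and 69.6 RPM. The site opposite Arl5c, of the ARF-like GTPase family, had 19.8, 52.5 and 68.1 RPM. Replicate 1 was the lowest library at both.

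Sfi1, which encodes a centrosomal protein, carried 2 of the 20 sites, 1 of 25.3, 19.7 and 30.1 RPM and the other of 11.8, 21.6 and 18.3 RPM. The libraries of the 2 sites were ordered differently. The site opposite Stx3, a syntaxin of membrane fusion, was among the steadiest, with 12.8, 10.6 and 12.4 RPM. The least steady were the sites opposite Inpp5f, a phosphoinositide phosphatase, with 3.88, 0.740 and 14.4 RPM, and opposite the lincRNA 4930516B21Rik, with 0.541, 13.5 and 4.91 RPM.

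**Figure D1:**
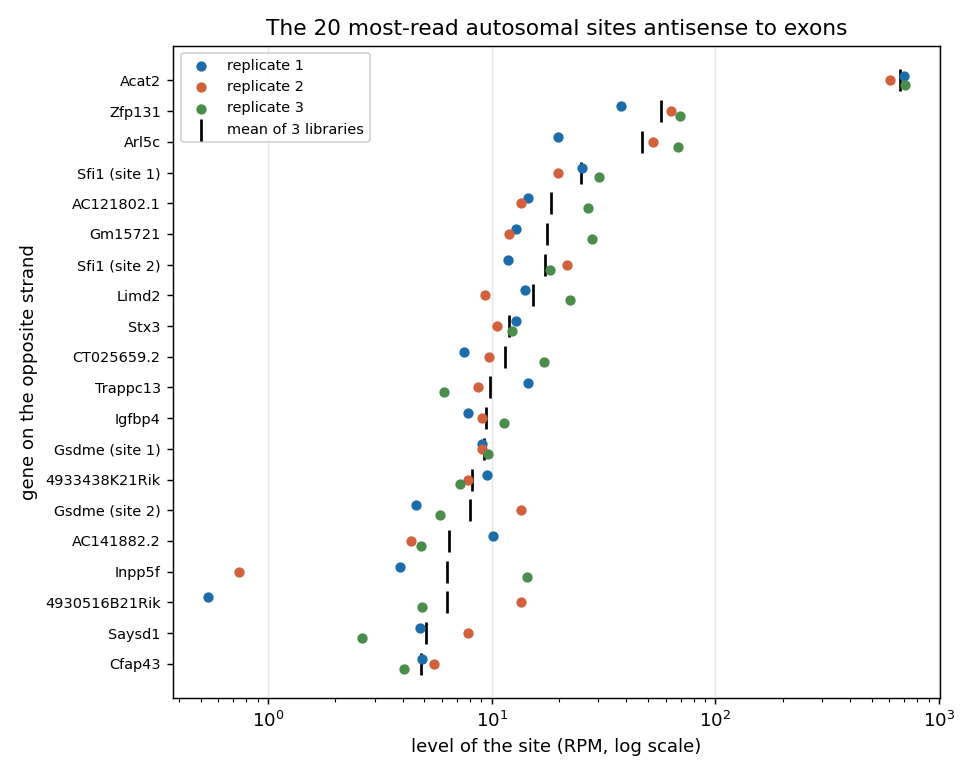
Level of the 20 autosomal sites antisense to exons with the highest mean, in RPM on a log axis, with 1 point per library and the mean of 3 libraries as a bar, labelled by the gene on the opposite strand. The site opposite Acat2 stands at 604 to 702 RPM, and the second, opposite Zfp131, at 38.0 to 69.6 RPM.

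Repeated sequence touched several of these sites. The 31 bases that end at the site opposite the lincRNA Gm15721 (12.9, 11.98 and 28.2 RPM) occur 280 times on chromosomes 1 to 19, X and Y, and those opposite Saysd1 (4.78, 7.88 and 2.63 RPM) occur 755 times. Those opposite Igfbp4, which encodes a binding protein of insulin-like growth factors, occur 16 times, those opposite Arl5c 4 times, and those opposite Trappc13 and 4933438K21Rik 3 times each. Levels of these sites are therefore uncertain. Over all AE sites, 191 (10.1%) had such a copy, and without the site opposite Acat2 they held 22.4% of AE reads. The share with a copy was 27.9% for sites antisense to introns and 5.31% for terminal exon sites.

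Poly(A) signals stood upstream of AE sites far more often than in control sequence nearby. In the 40 bases upstream, AATAAA was present at 25.3%, 28.02% and 19.9% of the AE sites with reads in replicates 1, 2 and 3, against 2.34%, 2.26% and 2.08% in a control window of 40 bases that starts 100 bases downstream. The difference was 22.2 ± 4.04 percentage points (SD, n = 3). ATTAAA was present at 6.17% ± 1.04 of sites, against 1.85% ± 0.260 in the control window. Of the AE sites with neither of these, 22.03% ± 0.980 had another of the 18 hexamers upstream. The same share in the control window was 16.8% ± 0.0942. None of the 18 hexamers was present upstream at 54.2% ± 4.74 of AE sites, against 79.9% ± 0.351 in the control window. Both main differences had the same sign in 3 of 3 libraries. The exact two-sided sign-flip test gave p = 0.25 for each, adjusted p = 0.25 over 8 comparisons, which is the smallest p that 3 libraries allow.

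The share with AATAAA rose with the reads of the site. It was 8.18% at AE sites with 1 read, 22.4% at 2 to 9 reads, 38.4% at 10 to 49 reads and 55.7% (49 of 88 sites) at 50 reads or more, while in the control window it stayed between 0.0% and 3.43%. Of the 88 sites with 50 or more reads, 19 had none of the hexamers. Over all sites with reads in a library, AE sites carried AATAAA less often than terminal exon sites, by 9.74 ± 4.99 percentage points, and less often than sites antisense to introns, by 5.65 ± 2.51 (SD, n = 3; exact two-sided sign-flip p = 0.25 and adjusted p = 0.25 for both, with the same sign in 3 of 3 libraries). Within bins of reads, the first difference turned around. At sites with reads in every library, without bins, it kept its sign, at -5.40 percentage points. At 10 to 49 reads the share was 38.4% for AE sites, 23.5% for terminal exon sites and 42.3% for sites antisense to introns. At 50 reads or more, a bin with no upper limit, it was 55.7%, 51.0% and 61.1%.

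**Figure D2:**
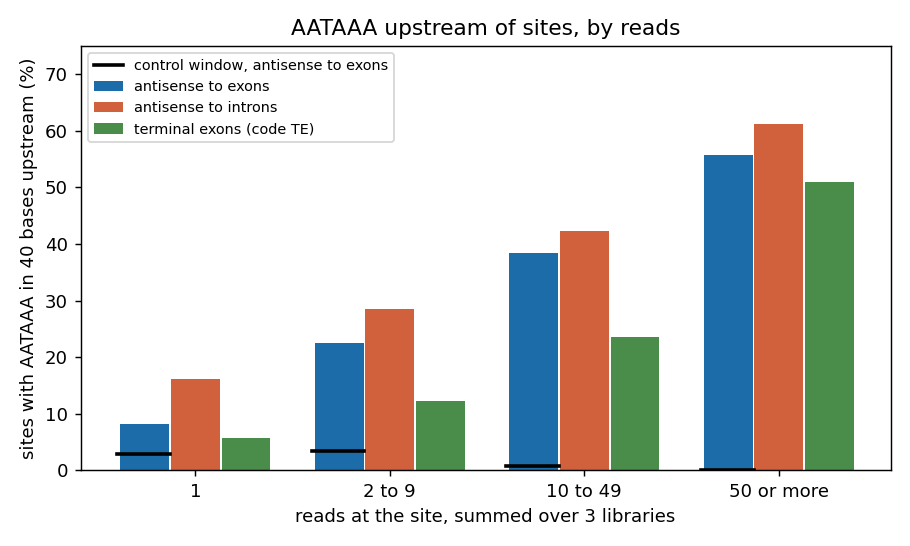
Share of sites (percent) with AATAAA in the 40 bases upstream, by the reads of the site summed over 3 libraries, for sites antisense to exons, sites antisense to introns and terminal exon sites, with the control window of the first as black lines. The share for sites antisense to exons rises from 8.18% at 1 read to 55.7% at 50 reads or more.

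A-rich sequence just downstream, where oligo-dT can prime on the RNA itself, was no common feature. It was found at 8.80%, 8.70% and 7.14% of AE sites in replicates 1, 2 and 3 (8.22% ± 0.93, SD, n = 3). These held 3.07% ± 0.225 of AE reads, counted with the site opposite Acat2, which was not A-rich. The share of reads was 14.2% ± 0.413 for sites antisense to introns and 0.750% ± 0.0305 for terminal exon sites. The share of sites was 13.9% ± 0.293 for sites antisense to introns and 6.13% ± 0.0934 for terminal exon sites. The differences from AE sites were -5.73 ± 0.656 and 2.09 ± 1.01 percentage points, each with the same sign in 3 of 3 libraries (exact two-sided sign-flip p = 0.25, adjusted p = 0.25). Across bins of reads the second difference changed sign. The share of sites was 7.55% for AE and 11.6% for terminal exon sites at 1 read, and 8.88% and 10.3% at 2 to 9 reads. At 10 to 49 reads it was 8.80% and 7.09%, and at 50 reads or more 5.68% and 2.87%. Among the named sites, those opposite Igfbp4 and Saysd1 were A-rich downstream.

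AE sites were spread over all parts of the genes they overlap. Of the 1894 sites opposite an exon, 1689 (89.2%) lay opposite a protein-coding gene, 122 opposite a lincRNA and 36 opposite a gene annotated as antisense, and in all 1646 genes were overlapped. The last exon of at least 1 annotated transcript was overlapped at 1255 sites (66.3%), which need not be near the end of the gene. The share of exon sequence in such exons was not analysed here. Opposite coding genes, 655 sites (38.8%) lay in a 3′ UTR, 430 (25.5%) in coding sequence, 178 (10.5%) in a 5′ UTR and 426 (25.2%) in exons of other transcripts between coding parts. The sites in a 3′ UTR lay a median of 992 bases from the annotated end of the overlapped gene (quartiles 313 and 2192 bases). Opposite coding genes, terminal exons held 73.8% of the AE reads without the site opposite Acat2.

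The strand of the site often had a coding gene ending just upstream. Among AE sites, 413 (21.7%) lay within 5000 bases downstream of the end of a coding gene on their own strand, against 924 (4.58%) of sites antisense to introns and 3561 (8.94%) of sites coded IG, of which 0.331% lay opposite a gene and 0.01% in a gene on their own strand. No AE site lay closer than 1005 bases to such a gene's end, so that the range runs from about 1000 to 5000 bases for AE sites. Of sites beyond 1000 bases and with reads in a library, this share was 24.4%, 24.3% and 23.9% for AE sites in replicates 1, 2 and 3, 5.69%, 5.06% and 4.40% for sites antisense to introns, and 10.8%, 10.3% and 9.07% for IG sites. The libraries of the 3 kinds of site did not overlap. The share of AE sites in this range grew with reads, from 12.3% at 1 read to 51.1% (45 of 88) at 50 reads or more. Within 5000 bases of such an end, it also grew between these bins for sites antisense to introns, from 2.86% to 13.0045%. For terminal exon sites it grew from 1.53% to 7.93%. Growth with reads was therefore not particular to AE sites.

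**Figure D3:**
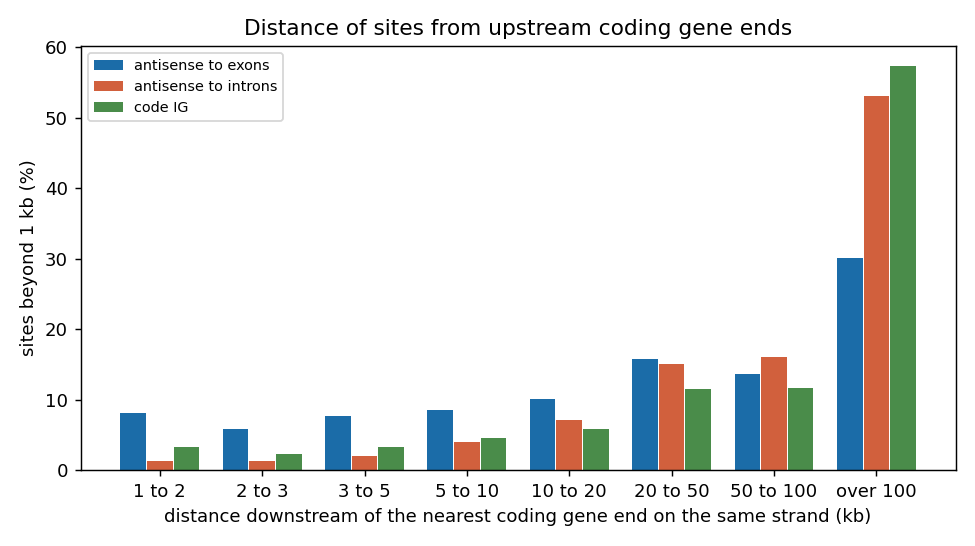
Share (percent) of sites by their distance downstream of the nearest coding gene end on the same strand, for sites more than 1000 bases from it that are antisense to exons, antisense to introns or coded IG. Sites antisense to exons have 8.12% at 1 to 2 kb, against 1.30% and 3.35% for the other two kinds.

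The sites near an upstream gene were set beside the rest in other readouts. They lay opposite a terminal exon of a coding gene in 75.5% of cases, against 54.0% of the 1487 other AE sites. They had AATAAA upstream in 28.8% of cases against 19.03%, a median of 6 reads against 2, and reads in every library in 12.1% of cases against 5.45%. The 326 coding genes upstream of them were mostly active. Of these, 275 (84.4%) stood at 1 RPM or more, against 55.7% of all autosomal coding genes, and their median level was 19.8 RPM against 2.23 RPM. Coding genes overlapped by an AE site were also above all coding genes, with 75.7% at 1 RPM or more and a median of 12.3 RPM. These are descriptions, with no test.

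Downstream of most of these genes the AE reads were few beside those of the gene. Over the 275 upstream genes at 1 RPM or more, the AE sites held a median of 0.654% of the reads of gene and AE sites together (quartiles 0.155% and 3.49%). In 35 genes they held 10% or more and in 3 genes 50% or more. Sfr1, a factor of recombination repair, stood at 263, 221 and 233 RPM, while the site opposite Cfap43, a cilium gene, stood at 4.87, 5.52 and 4.05 RPM, which was 1.99% ± 0.397 of both. Mrpl16, of the mitochondrial ribosome, stood at 76.6, 104 and 94.5 RPM, and the site opposite Stx3 held 11.7% ± 2.57 of both (SD, n = 3). In both cases the gene held more reads than the AE site in every library.

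Downstream of some other genes the AE sites held more reads than the gene itself. Map3k3, a kinase of the MAP kinase cascade, had 0.722, 2.36 and 3.20 RPM at its annotated exons and the 1000 bases downstream, and 14.2, 9.42 and 22.8 RPM at 3 AE sites opposite Limd2, a LIM domain gene. The AE sites held 87.6% ± 7.58 (SD, n = 3) and were higher in every library. The most-read of them lay 1203 bases past the GENCODE M21 end of Map3k3 but 1 base from the end of a curated RefSeq transcript of Map3k3. Sgtb, a co-chaperone gene, had 4.96, 1.01 and 0.782 RPM, and the site opposite Trappc13, of the TRAPP trafficking complex, had 14.6, 8.68 and 6.11 RPM, 1515 bases past the Sgtb end. The site opposite Trappc13 is 1 of those with copies elsewhere.

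A match to a RefSeq end was rare over all AE sites and commoner among the well-read. In all, 38 AE sites (2.00%) lay within 25 bases of a RefSeq transcript end on their own strand, against 0.590% of sites antisense to introns. Among AE sites with 50 or more reads, 11 of 88 (12.5%) did, against 4.63% of sites antisense to introns. In addition, 90 AE sites (4.74%) lay in a RefSeq exon on their own strand.

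Gsdme, which encodes a gasdermin that forms pores in membranes, had the most AE sites of any gene, 11, and is described for that reason, as chosen after its values were seen. Its gene body (chr6:50188888-50263862, - strand) runs against Mpp6 (chr6:50110241-50198939, + strand), a scaffold gene of the MAGUK family, and the sites lay 2039 to 4176 bases past the Mpp6 end. The sites summed to 21.8, 29.9 and 17.2 RPM, Mpp6 stood at 28.5, 28.9 and 45.3 RPM and Gsdme itself at 2.26, 4.11 and 5.19 RPM. The AE sites thus held 43.4%, 50.8% and 27.5% of the reads of Mpp6 and AE sites together, lowest in replicate 3.

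Most of these reads fell on 2 of the 11 sites. The site 3509 bases past the Mpp6 end had 9.02, 9.09 and 9.67 RPM, close to alike in the 3 libraries. The site at 2285 bases had 4.60, 13.5 and 5.90 RPM, highest in replicate 2, and its 31 bases occur 2 times in the genome. Another, at 2353 bases, had 4.15, 2.69 and 0.995 RPM, and the other 8 each had a mean below 1 RPM.

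**Figure D4:**
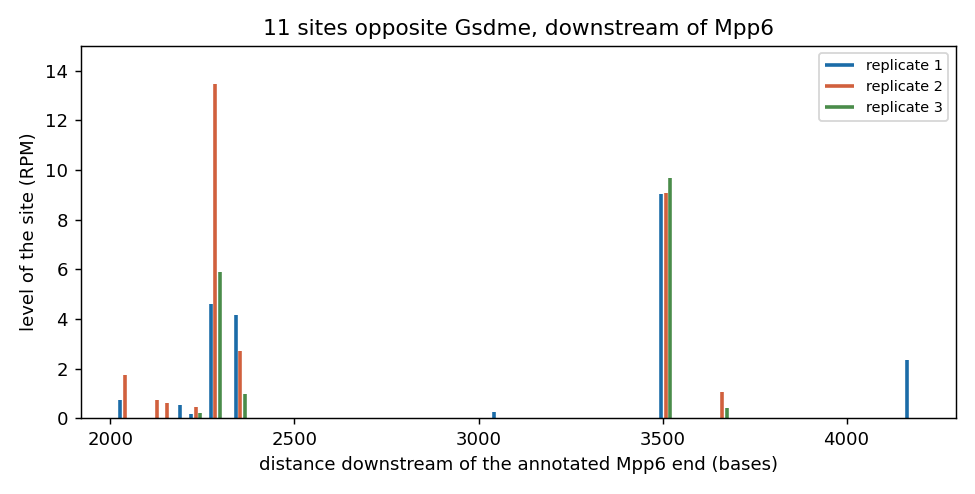
Level in RPM of the 11 sites opposite Gsdme in each library, against the distance in bases downstream of the annotated Mpp6 end. The site at 3509 bases is at 9.02 to 9.67 RPM in the 3 libraries, and the site at 2285 bases at 4.60 to 13.5 RPM.

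Some AE sites faced a listed site on the other strand. For 215 AE sites (11.3%) a site on the opposite strand lay within 50 bases, against 1.16% of sites antisense to introns and 2.46% of terminal exon sites. These shares are not on equal terms, since AE sites lie opposite exons by their code. Only 0.977% of sites antisense to introns and 4.67% of terminal exon sites did. The facing site had more reads in 142 of the 215 pairs, with a median of 12 reads against 3 for the AE site. These AE sites had AATAAA upstream in 31.2% of cases, against 19.9% of the other 1685. They held 8.29% of AE reads without the site opposite Acat2.

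The next question was whether antisense reads exceeded the sense reads of the overlapped gene. Log2 ratios of antisense to sense RPM (pseudocount 0.05 RPM) were tested against 0 with limma over the 3 libraries, in genes with at least 20 reads on both strands together, and a call needed a 2-fold ratio and a p under 0.05 after Benjamini-Hochberg adjustment. Counting antisense sites of any code, 1292 of 10015 genes were called antisense above sense (12.9%) and 6159 sense above antisense (61.5%). Among the 1391 genes with an AE site, 83 (5.97%) were called antisense and 999 (71.8%) sense. Counting antisense sites coded AE or AI only, 55 of 1379 genes with an AE site (3.99%) were called antisense, against 4.01% of all 7859 genes tested, and 1087 (78.8%) sense, against 77.4%, so both shares were near those of all genes.

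The antisense calls with the highest levels among them came from annotated genes on the other strand rather than from AE sites. Phykpl, a lyase of hydroxylysine metabolism, had 819, 857 and 966 antisense RPM against 2.62, 4.78 and 0.284 sense RPM, a log2 ratio of 9.08 ± 1.00 (SE; limma adjusted p = 0.000983), but sites coded AE or AI made up 2.15% of the antisense reads, and the most-read site there lies in Hnrnpab. The same held for Nme7 (Atp1b1 on the other strand), Unc13a (Colgalt1), Prpf39 (Fkbp3), Has3 (Chtf8) and Stk16 (Tuba4a), where AE and AI sites held 0.0265% to 0.816% of antisense RPM. Among the sense calls with the highest levels were Ncl, which encodes nucleolin, and Rps3, which encodes a ribosomal protein. Antisense levels were 0.0525 RPM against 2355 sense RPM for Ncl, and 0.0237 RPM against 1078 sense RPM for Rps3 (means of 3 libraries).

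Antisense reads were then restricted to AE sites, which leaves no other genes to compare with. Of 1340 genes tested, 1188 (88.7%) were called sense above antisense and 36 (2.69%) antisense above sense, while edgeR called 75.1% sense. The median gene had 0.0711 AE RPM and 16.9 sense RPM. The 36 were 18 of the 1266 coding genes tested (1.42%) and 18 of the 74 noncoding genes tested (24.3%). In 33 of the 36 the sense level was below 1 RPM, against 157 of the 1340 tested. In 17 of the 36 there were 0 sense reads, against 23 of the 1340. The minimum was set on both strands together, so a gene with few reads on 1 strand passed it through the other, and these counts are a description. This count was sensitive to the fit: 11 of the 36 calls held when any 1 library was left out, 24 held in a limma fit with a mean trend and 9 in edgeR's quasi-likelihood test on recovered reads.

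**Figure D5:**
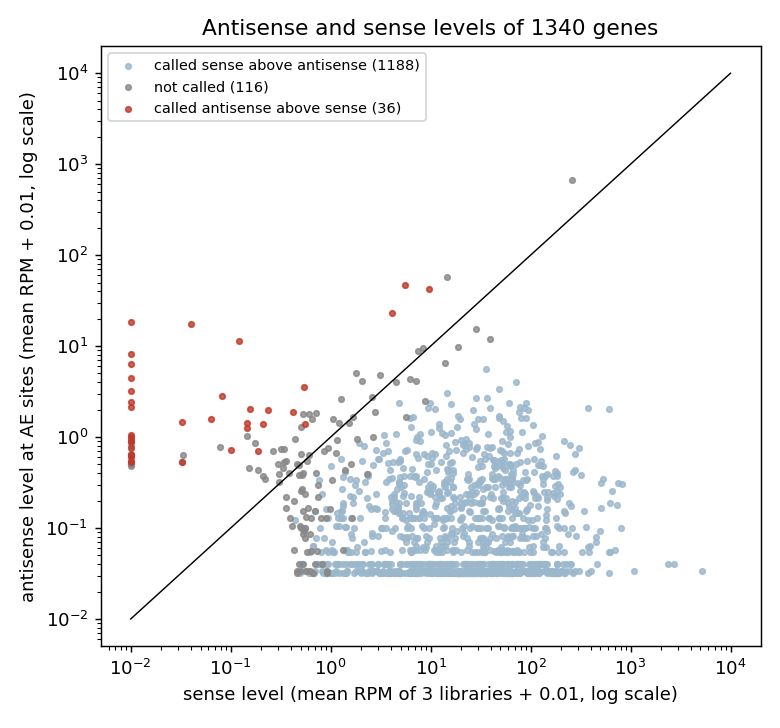
Antisense level at AE sites against sense level, each as the mean RPM of 3 libraries plus 0.01 on a log axis, for 1340 genes, with the line of equal levels. Most genes lie below the line (1188 called sense above antisense), and the 36 called antisense above sense mostly lie at sense levels below 1 RPM.

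Among the 36, the following were chosen after their values were seen, in order of AE level. Their limma standard errors are alike, since limma drew the spread of each gene towards that of all genes. Arl5c had 19.8, 52.5 and 68.1 AE RPM against 5.50, 6.73 and 4.41 sense RPM, a log2 ratio of 2.91 ± 1.03 (SE; limma adjusted p = 0.00602; edgeR adjusted p = 0.116). Sfi1 had 37.2, 41.3 and 48.5 against 10.6, 12.6 and 6.04 RPM (log2 ratio 2.17 ± 1.03, limma adjusted p = 0.0398; edgeR adjusted p = 0.226). Gsdme had a log2 ratio of 2.49 ± 1.03 (limma adjusted p = 0.0187; edgeR adjusted p = 0.163). In all 3 genes the antisense strand was higher in 3 of 3 libraries. With 1 library left out in turn, the call held in 1 of 3 fits for Arl5c, 0 of 3 for Sfi1 and 1 of 3 for Gsdme.

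Where the sense strand had 0 reads, the antisense level was set against a floor of 3 reads over the 3 libraries (0.0750 RPM). AE sites opposite the lincRNA AC121802.1 had 14.6, 13.5 and 27.0 RPM, at least 245-fold higher. Those opposite 4933438K21Rik had 9.56, 7.81 and 7.25 RPM, at least 109.5-fold higher, and those opposite Il4, the interleukin-4 gene, had 2.53, 2.69 and 4.34 RPM, at least 42.5-fold higher. These genes passed the minimum on reads through their AE reads alone, so no test is given for them. The site opposite Il4 lay downstream of Kif3a, a kinesin gene, and held 18.7% ± 3.87 of the reads of Kif3a and the site together (SD, n = 3).

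Acat2 was not among the calls. Its AE level was 667 ± 55.0 RPM and its sense level 259 ± 33.8 RPM (SD, n = 3), a log2 ratio of 1.37 with a standard error of 1.03 in limma without a mean trend (adjusted p = 0.195). With a mean trend the standard error was 0.157 and the adjusted p 1.08e-17, and in edgeR the adjusted p was 0.367. The call of this gene therefore depends on how the spread was modelled, although antisense was higher in 3 of 3 libraries.

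Genes of pathways that matter in ES cells were looked up in 9 lists. Over all autosomal genes with reads, 1354 of 19438 (6.97%) had an AE site opposite, and of coding genes 1282 of 14300 (8.97%). Of the pluripotency genes 5 of 28 did, of formative and lineage regulators 1 of 22, and of cell cycle and replication genes 1 of 22. Cleavage and polyadenylation factors had 4 of 23, the nuclear exosome and its adaptors 1 of 21, and imprinted genes 2 of 22. Replication-dependent histones had 1 of 15, ribosomal proteins 3 of 34, and the list drawn up as convergent pairs and annotated antisense RNAs 4 of 21. In these lists 1 gene, Grb10, had an AE site with reads in every library, against 98 of all genes with reads.

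The antisense levels in the lists were low. Opposite Stat3, the transcription factor downstream of LIF, AE sites had 0.0, 0.0 and 2.06 RPM, while Stat3 itself had 47.3, 48.9 and 56.5 RPM. Opposite Tbx3, a T-box factor, they had 1.08, 0.0 and 0.0 RPM against 150, 195 and 154 RPM. Opposite Klf4, a Krüppel-like factor of the naive state, they had 0.451, 0.404 and 0.0 RPM against 68.9, 79.1 and 86.7 RPM. In each of these the antisense reads were missing from at least 1 library.

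Grb10, an imprinted adaptor of growth factor signalling, had 0.0902, 0.0673 and 0.213 AE RPM against 0.180, 0.269 and 0.711 RPM of its own. The other imprinted gene was Rian, with 1 AE read. Exosc2, a subunit of the exosome, had 0.995 AE RPM in replicate 3 and none in the others. Rbbp6, Sympk and Ppp1cb, of the cleavage and polyadenylation machinery, had mean AE levels of 0.0935, 0.0902 and 0.0237 RPM. Surf1, Surf2 and Brd1, of the list drawn up as convergent pairs and antisense RNAs, had AE means of 0.498, 0.331 and 0.314 RPM, each from 1 library. By their coordinates Surf1 and Surf2 overlap at their 5′ ends and so are not a convergent pair. Pax6, Mcm5, Hist1h2bc, Rps3 and Rps18 had 1 or 2 AE reads each.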

How the data were processed

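The 3 lists hold the same 178115 sites on mm10 with GENCODE M21, per the file headers of the accompanying text. The values the authors deposited are RPM, and the lists also give the fraction of libraries with reads, as deposited. The aligner and site caller were not given in the sources used. RPM values were whole multiples of 1 read within 0.01 reads for 100% of values, so whole reads were recovered. The deposited hexamers compared with GRCm38 were found at their place (188742 of 188742). The X, Y and mitochondrial chromosomes had no reads in replicate 3, so autosomes were used.

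A-rich sites had 12 or more A, or 6 A in a row, in the next 20 bases. The 18 deposited hexamers were searched on the strand of the site. Gene levels are RPM at sites in exons and 1000 bases downstream. For strand ratios, sense reads were those of the gene body and 1000 bases downstream. Ratios were tested with limma 3.58.1 and, as alternatives, with edgeR 4.0.16 and DESeq2 1.42.0 on recovered reads (R 4.3.3); sequences were read with pysam 0.24.0 and compared with edlib. The edgeR test with the library as a block called 59 genes with an AE site antisense and 906 sense. Reads carry no stated molecular identifiers, so counts may not be independent molecules.

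The named items were the 20 AE sites with the highest mean, up to 6 antisense and 4 sense calls by summed RPM, and up to 3 genes per list by AE level. Some genes that the rule names are not reported here. The members and lists were chosen with earlier results of these data known.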

Additional observations from a re-analysis of the deposited data

Results flagged for a closer look

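Sites antisense to exons on the X chromosome were left out of the comparisons, because replicate 3 had no reads there. In replicates 1 and 2 they had 163 reads summed over 26 sites (55 and 108 reads, 4.96 and 7.27 RPM), a signal outside the main measurement. No group of 4 or more samples exists, so no library could be tested as an outlier.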

How the results depend on the processing

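The AE share of autosomal RPM (0.158%) was 0.126% at AE sites with reads in every library, 0.150% of RPM at all listed sites, 0.170% without the largest autosomal site and, chosen after seeing the data, 0.0813% without the site opposite Acat2. With 1 library left out, 13.7% to 16.1% of AE sites had reads in every library kept, a share that fewer libraries raise by construction. At sites with 10 or more reads (chosen after seeing the data) the AATAAA difference reversed to 1.31 percentage points against terminal exon sites and 3.07 against all other autosomal sites. At sites with reads in every library, a planned setting, both kept their sign, at -5.40 and -3.74 points. At sites with reads in every library the A-rich difference against all other sites reversed to 2.47 points, and that against terminal exon sites rose to 6.29 points. The cause was not tested. Leaving out A-rich sites gives no value for the A-rich shares.

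Genes with an AE site called antisense (83) were 36 with AE reads only, 55 with AE and AI reads (added after seeing the data), 167 with edgeR and TMM factors and 235 with DESeq2 size factors. Genes called sense (999) were 480 and 569 with these 2 scalings, which centre the 2 strands on each other. With AE reads only, the 36 calls became 16 to 22 with 1 library left out, 23 with a pseudocount of 0.5 RPM and 9 with edgeR and the replicate block, all added after seeing the data. Main ratio fits without replicate 1, 2 or 3 called 62 to 64 antisense and 857 to 921 sense. With sense reads over exons only, a planned setting, 121 of 1314 genes with an AE site (9.21%) were called antisense and 888 sense.

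In the lists, requiring reads in every library left 1 imprinted gene and 0 genes in the other 8 lists. With 1 library left out the counts were 3 to 5 (pluripotency), 0 to 1 (formative), 2 to 4 (cleavage), 0 to 1 (exosome), 1 to 2 (imprinted), 0 to 1 (histones), 1 to 3 (ribosomal) and 2 to 3 (convergent).

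All differences between libraries rest on 3 libraries of 1 group, and 41.8% of AE sites rest on 1 read, so the absence of a site from a library is not distinguishable from its depth.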
